A study of Homo sapiens with 14 samples.

Results

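The clustered replication-dependent histone genes are the genes that make the bulk of a cell's histones. They were taken as every row of the deposited count table named H1-1 to H1-6, or H2AC, H2BC, H3C or H4C followed by digits only. That rule found 65 genes of the 58780 in the table: 6 H1, 15 H2A, 18 H2B, 11 H3 and 15 H4 genes. They lie on chromosomes 6 (53 genes), 1 (11 genes) and 12 (H4C16 alone), in 6 clusters that are more than 500 kb apart in GENCODE 29 (GRCh38). Enough reads for a test were found for 52 of them.

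Replication-dependent histone genes are transcribed mainly in S phase, at nuclear bodies called histone locus bodies, where NPAT and other factors gather. H2A, H2B, H3 and H4 are the core histones around which DNA is wrapped, and H1 is the linker histone that binds where DNA enters and leaves that core. Their transcripts are unusual in carrying no poly(A) tail: they end after a short stem-loop, which SLBP binds and the U7 small nuclear ribonucleoprotein helps to cleave. Several core histones are known substrates of protein arginine methyltransferases.

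Nascent RNA was measured by precision run-on sequencing, in which polymerases already engaged on DNA are allowed to extend their transcripts in permeabilized cells and the extended RNA is sequenced. The cells were A549, an established epithelial line from a human lung adenocarcinoma. GSK591 inhibits PRMT5, MS023 inhibits the type I arginine methyltransferases, and dexamethasone (Dex) is a synthetic glucocorticoid. The 14 libraries formed 7 groups of 2: untreated cells labelled as 15 min; 1 µM GSK591 or 1 µM MS023 for 15 min; either inhibitor together with 100 nM Dex for 15 min; and either inhibitor for 3 h, all in 0.01% DMSO. Cells given Dex alone and untreated cells kept for 3 h are not analysed here, so time in culture and inhibitor cannot be told apart at 3 h. The labels do not say whether the 2 libraries of a group came from separately grown cultures, so p-values measure the spread between these libraries, which may be technical.

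Libraries held 5768312 to 9606938 counted reads, of which 39.8% to 58.0% were on mitochondrial genes and 26602 to 45877 (0.362% to 0.491%) on the 65 histone genes. Levels below are in CPM, the read count of a gene scaled to a common library size after adjustment by the trimmed mean of M values (TMM), with factors of 0.810 to 1.16. The library of GSK591 with Dex replicate 2 had the lowest factor and the highest mitochondrial share. Summed levels of 6 epithelial markers were 819 to 1101 CPM, against 2.63 to 4.39 CPM for 4 leukocyte and 4.95 to 8.18 CPM for 4 fibroblast markers. The sums were 0.236 to 1.84 CPM for 3 endothelial and 3.21 to 8.68 CPM for 3 erythroid markers, and CD3E was at 0 in every library. The epithelial sum came mostly from KRT7, KRT8 and KRT18 (medians 476, 307 and 141 CPM). EPCAM and CDH1 were low (medians 2.82 and 2.20 CPM), below CD14 of the leukocyte list (3.27) and COL1A1 of the fibroblast list (6.68). No spike-in is given in the sources used here, so every fold change is measured against the other genes of the library.

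The histone genes differed widely in level among themselves. Per kilobase of exon, and averaged over the 14 libraries, the linker genes H1-2, H1-4 and H1-3 stood at 323, 271 and 218 CPM per kb, and H1-5 at 97.6. The highest H2A gene was H2AC20 at 329 CPM per kb, followed by H2AC21 (216), H2AC12 (171) and H2AC13 (143). H2B genes were lower: the leading members H2BC12, H2BC17, H2BC5 and H2BC13 stood at 122, 109, 95.4 and 95.3 CPM per kb. Among H3 genes, H3C13 (273), H3C15 (245) and H3C14 (243) were above H3C1 (141 CPM per kb). H4C2 led the H4 genes at 163 CPM per kb, with H4C12, H4C4 and H4C1 between 117 and 130.2. Gene models of this family differ in how much of the untranslated ends they include, so small differences per kb between genes are uncertain.

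The other 13 genes, H1-1, H1-6, H2AC1, H2AC7, H2AC8, H2AC15, H2AC17, H2BC1, H2BC9, H3C4, H3C8, H4C6 and H4C7, had at most 12 reads in any library, and H2AC1, H2AC7, H2AC15 and H3C4 had none in all 14. H1-6, H2AC1 and H2BC1 are known as testis histones. H2BC8, with 53 reads in all libraries together, passed the filter through 2 libraries, GSK591 with Dex replicate 2 at 1.53 CPM and MS023 3 h replicate 2 at 1.94 CPM, and was at or below 0.707 CPM in the others. Of the 52 tested genes, 10 share exon sequence positions with another gene, and because the strand and multiple-mapping settings of the counting are not given in the sources used here, their reads may be shared. H3C14 and H3C15 are near-identical copies whose counts stood in a ratio of 0.937 to 1.03 over the libraries, and H4C14 and H4C15 likewise (0.946 to 1.07), so neither gene of such a pair can be read on its own.

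The bases just before the transcription start are shown for the 4 tested H1 genes and for 3 core genes that the results contrast with them: H2BC18 and H2BC21, which had lower levels in several treatments, and H4C2, which was called in no comparison. Each run gives the 150 bases before the start, 5′ to 3′ on the gene's strand, from RefSeq (GRCh38.p14). Capitals mark exact matches, on either strand, to 4 motifs. The motif TATAAA is the form of the TATA box that was searched. The motif CCAAT is the usual binding letters of factors such as NF-Y. The octamer that POU2F1 is known to bind was searched as ATTTGCAT. The so-called H1 box of linker histone promoters was searched as AAACACA. The runs are H1-2 (chr6:26056471-26056620, minus strand), H1-3 (chr6:26234988-26235137, minus strand), H1-4 (chr6:26156179-26156328, plus strand), H1-5 (chr6:27867589-27867738, minus strand), H2BC18 (chr1:149812371-149812520, minus strand), H2BC21 (chr1:149886683-149886832, minus strand) and H4C2 (chr6:26027284-26027433, minus strand).
H1-2: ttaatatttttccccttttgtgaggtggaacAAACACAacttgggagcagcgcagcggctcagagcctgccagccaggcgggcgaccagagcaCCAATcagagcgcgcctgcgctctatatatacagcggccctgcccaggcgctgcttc
H1-3: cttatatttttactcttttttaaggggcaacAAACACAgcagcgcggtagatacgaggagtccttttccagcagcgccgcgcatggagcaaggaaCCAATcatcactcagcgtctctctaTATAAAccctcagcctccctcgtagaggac
H1-4: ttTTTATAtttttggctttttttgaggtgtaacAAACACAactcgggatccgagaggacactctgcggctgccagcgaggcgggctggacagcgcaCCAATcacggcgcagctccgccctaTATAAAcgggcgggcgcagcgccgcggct
H1-5: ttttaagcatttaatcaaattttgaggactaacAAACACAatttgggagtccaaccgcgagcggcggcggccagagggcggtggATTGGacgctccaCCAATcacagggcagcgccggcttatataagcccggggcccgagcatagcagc
H2BC18: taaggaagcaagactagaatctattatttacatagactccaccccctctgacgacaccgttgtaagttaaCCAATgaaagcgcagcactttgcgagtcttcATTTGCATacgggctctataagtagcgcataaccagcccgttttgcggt
H2BC21: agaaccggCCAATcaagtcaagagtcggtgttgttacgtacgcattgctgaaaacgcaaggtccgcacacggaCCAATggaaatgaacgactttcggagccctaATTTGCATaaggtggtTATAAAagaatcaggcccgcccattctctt
H4C2: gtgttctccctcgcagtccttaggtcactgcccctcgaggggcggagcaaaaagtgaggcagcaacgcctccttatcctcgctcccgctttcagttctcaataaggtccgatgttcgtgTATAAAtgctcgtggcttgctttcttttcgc

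The 4 tested linker genes shared an arrangement: AAACACA began 119 bases before the start in H1-2 and H1-3 and 117 bases before it in H1-4 and H1-5, followed by CCAAT 57, 55, 54 and 53 bases before the start. Windows from 250 bases before to 50 after the start were found for 60 of the 65 genes, and for 34943 promoters in all. AAACACA lay in 6 of 6 H1 windows, 1 of 14 H2A, 2 of 9 H3 (the copies H3C14 and H3C15) and in no H2B or H4 window, against 5.66% of all promoters. ATTTGCAT lay in 14 of 18 H2B and 11 of 14 H2A windows and in none of the other families, against 1.77% of all promoters. CCAAT lay in every H1, H2A, H2B and H3 window but in 3 of 13 H4 windows (34.6% of all promoters), and TATAAA in 40 of the 60 windows (11.6% of all). H2A and H2B genes often face away from each other across a shared promoter, so their windows overlap and hold some of the same matches. A match is a description of these letters and not evidence that a factor was bound.

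The 3′ stem-loop was searched in GENCODE 29 transcripts as GGCTCT and AGAGCC, the 2 sides of the stem, with a loop of any 4 bases between them. It was found in 20 of the 65 histone genes (30.8%) and in 52 of 58721 genes in all (0.0886%). The stem is in capitals and the loop in lower case in the 3 versions, which were carried by 15, 4 and 1 of the genes in this order.
Stem-loop 1: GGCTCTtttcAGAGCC
Stem-loop 2: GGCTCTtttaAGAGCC
Stem-loop 3: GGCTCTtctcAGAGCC
A gene model that stops short of the 3′ end would lack it, and no match says only that these letters are not in that model.

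After 3 h of GSK591, nascent reads were lower than in untreated cells at part of the histone genes. Of the 52 tested, 20 fell and none rose, where 3.79% of all 21910 tested genes fell. Calls were made by the edgeR quasi-likelihood test, at a Benjamini-Hochberg adjusted p under 0.05 over all genes. Untreated cells kept for 3 h are not analysed here, so time in culture and inhibitor cannot be told apart. Among the called genes the falls were deepest at the linker histones. H1-3 stood at 173 and 184 CPM in the 2 untreated libraries and at 98.7 and 99.1 CPM after GSK591. H1-4 went from 234 and 247 to 144 and 145 CPM. Both GSK591 libraries lay below both untreated libraries at each gene, and the groups did not overlap. H1-2 went from 215 and 238 to 157 and 142 CPM and H1-5 from 71.8 and 76.0 to 43.4 and 46.7 CPM. On the log2 scale, with the standard error (SE) of the fit, the changes were -0.85 ± 0.10 for H1-3 (adjusted p 2.7e-08), -0.74 ± 0.10 for H1-4 (1.2e-06), -0.71 ± 0.11 for H1-5 (6.1e-06) and -0.60 ± 0.10 for H1-2 (5.8e-05). These are falls of 33.9% to 44.6%, and all 4 were called under each alternative run. None of the 4 shares exons with another gene. In these bulk libraries, fewer cells in S phase and less nascent RNA per cell cannot be told apart.

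**Figure D1:**
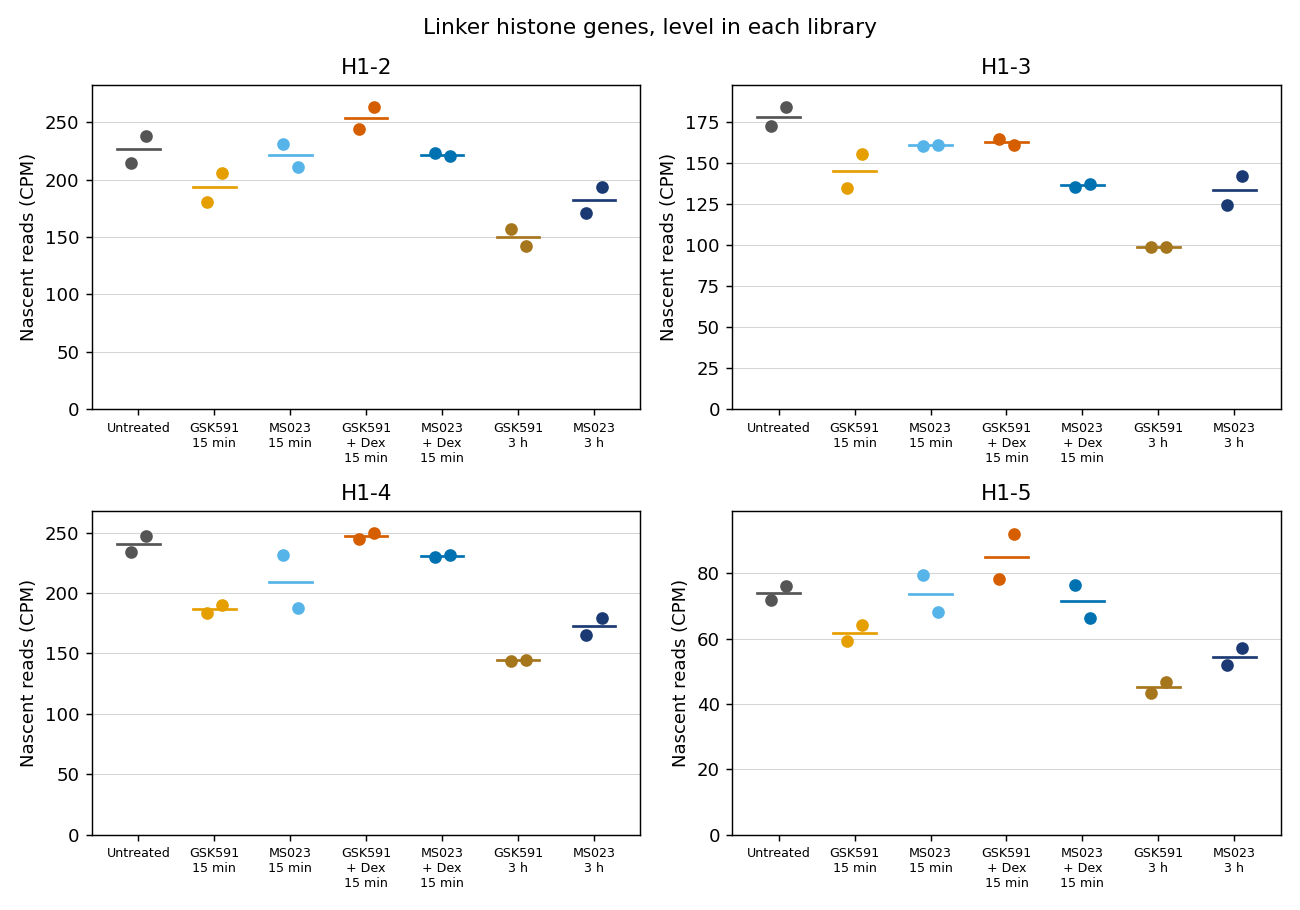
Level in each library of the 4 linker histone genes that passed the read filter. The horizontal axis is the group, the vertical axis is CPM from 0, points are libraries and bars are group means. At every gene the 2 GSK591 3 h libraries are the lowest of the 14, with H1-3 at 98.7 and 99.1 CPM against 173 and 184 in untreated cells, and the MS023 3 h libraries lie between those and the untreated ones.

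Of the core histones, 16 of 48 tested genes fell after 3 h of GSK591: 5 of 10 H2A, 6 of 16 H2B, 4 of 9 H3 and 1 of 13 H4 genes. H3C13, an H3 gene of the chromosome 1 cluster, went from 133 and 129 to 94.7 and 96.0 CPM (-0.46 ± 0.10, adjusted p 0.0011). H2BC5 fell by a like amount (-0.45 ± 0.10, adjusted p 0.0023; edgeR). The median log2 change was -0.73 over the 4 H1 genes and -0.28 over the 48 core genes, against -0.01 over all genes. H4 was the family with the median nearest to 0 (-0.21), and the level of H4C2 was 75.7 and 77.6 CPM in untreated and 65.3 and 66.6 CPM in GSK591 libraries (-0.22 ± 0.10, adjusted p 0.19, not called). Without GSK591 3 h replicate 2, 9 genes were called, and with scaling by library size alone 4 were, the 4 linker genes. All 5 family medians stayed below 0 under that scaling and under scaling by reads outside the mitochondrial genome.

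After 3 h of MS023, linker histones were lower than in untreated cells, and no core histone passed the test. Here too, time in culture and inhibitor cannot be told apart. H1-3, H1-4 and H1-5 fell, 3 of 52 genes, where 2.23% of all tested genes fell. H1-4 stood at 165 and 179.7 CPM after MS023, below both untreated libraries (234 and 247), with a log2 change of -0.48 ± 0.10 (adjusted p 1.0e-03; edgeR). H1-3 stood at 125 and 142 CPM (-0.42 ± 0.10, adjusted p 0.0026) and H1-5 at 51.8 and 57.1 CPM (-0.44 ± 0.11, adjusted p 0.0048), again with no overlap with untreated libraries. H1-2 was at 171 and 194 CPM and just missed the threshold (-0.31 ± 0.10, adjusted p 0.051). None of the 48 core genes passed the test (edgeR; 3 at an unadjusted p under 0.05; DESeq2 called 4 of the 52 histone genes in all), and their median log2 change was 0.00, with 24 genes above 0 and 24 below. The H1 median was -0.43. H1-4 was called in every alternative, whereas H1-3 and H1-5 lost their call without untreated replicate 2 (adjusted p 0.0992 and 0.110), without MS023 3 h replicate 1 (0.131 and 0.127) or with library size alone as scaling (0.0836 and 0.0681). The GSK591 and MS023 contrasts at 3 h use the same untreated libraries.

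**Figure D2:**
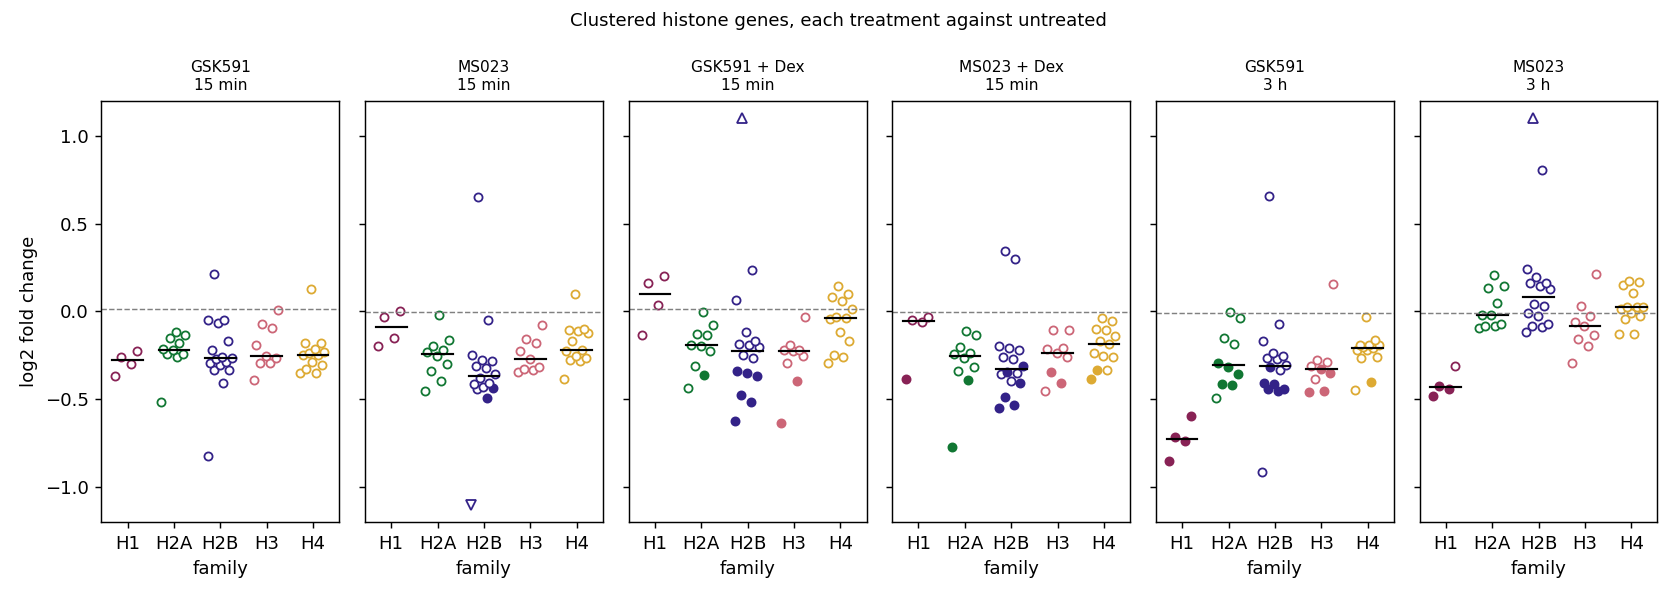
Log2 fold change of each of the 52 tested histone genes in 6 treatments against untreated cells, by family. Filled points passed the test and open points did not, short black lines are family medians, the dashed line is the median of all tested genes, and triangles are H2BC8 values beyond the axis. H1 has the lowest family median in both 3 h panels, -0.73 and -0.43, while the core families lie below 0 after GSK591 and around 0 after MS023.

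The balance of linker to core histone reads within a library needs no scaling between libraries. Untreated libraries had 16.5 and 17.4 H1 reads per 100 core histone reads. After 3 h the ratio was 13.0 and 12.4 with GSK591 and 12.7 and 13.3 with MS023, and these 4 libraries were the lowest of the 14. Libraries treated for 15 min had 15.8 and 16.1 with GSK591, 19.6 and 18.7 with MS023, 20.4 and 20.7 with GSK591 and Dex, and 18.8 and 18.2 with MS023 and Dex. The last 3 groups all lay above the untreated libraries and GSK591 alone lay below them. No p is given for this ratio, which sums over genes chosen with earlier results in view, and 2 libraries against 2 cannot reach a small exact p. The ratio of H2B to H4 reads moved less: it was 78.4 and 77.8 H2B reads per 100 H4 reads in untreated libraries and 66.0 to 81.3 over all 14.

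**Figure D3:**
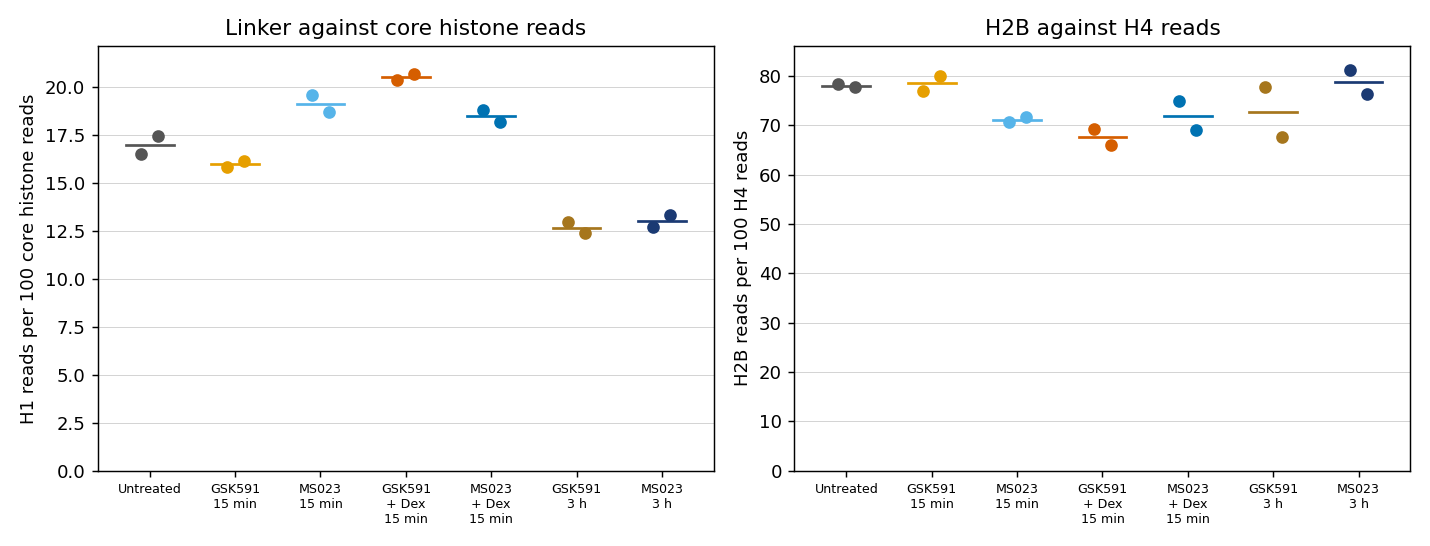
Ratios of reads within each library, as H1 reads per 100 core histone reads (left) and H2B reads per 100 H4 reads (right), by group. Points are libraries and bars are group means, and both vertical axes start at 0. In the left panel the 4 libraries treated for 3 h sit at 12.4 to 13.3, below the untreated libraries at 16.5 and 17.4.

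At 15 min the histone genes lay a little below untreated levels with either inhibitor alone, and few or none passed the test. With GSK591, 0 of 52 were called (edgeR; 28 at an unadjusted p under 0.05; DESeq2 called 1; 0.306% of all genes were called), while 49 of 52 log2 changes were below 0. Their median was -0.25 against 0.02 over all genes. At 44 of the 52 genes both GSK591 libraries lay below both untreated libraries, as they did at 16.9% of all tested genes. H1-4 gave 183 and 189.8 CPM against 234 and 247 (-0.37 ± 0.10, adjusted p 0.12; edgeR), and it was not called. With MS023, 2 of 52 genes fell, where 0.1% of all genes fell and 0.183% were called in either direction. H2BC4 went from 86.0 and 90.2 to 65.6 and 59.0 CPM (-0.50 ± 0.11, edgeR adjusted p 0.027). H2BC18 went from 135 and 131 to 97.5 and 98.5 CPM (-0.44 ± 0.10, edgeR adjusted p 0.042). H2BC18 shares exon positions with FCGR1A on the other strand. Both genes encode H2B, and the H2B family had the lowest median log2 change (-0.37) and H1 the one nearest to 0 (-0.09, which turned to 0.08 with library size alone). At 42 of 52 genes both MS023 libraries were below both untreated libraries, as at 19.2% of all genes. Neither H2B call remained without either MS023 15 min or either untreated library, or with library size alone, which moved the median of all genes to 0.16. With reads outside the mitochondrial genome as library size, which moved it to -0.16, 22 of 52 fell with MS023 and 2 with GSK591. That library size put 16509 of 21910 tested genes below 0 with MS023 and 14836 with GSK591. With only the groups compared, 8 histone genes were called with MS023 and 5 with GSK591. The share of all genes called in these settings is not given here. The 15 min and 3 h contrasts share the untreated libraries, and the level of those 2 libraries enters each of them.

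Against untreated cells, core histone genes fell with an inhibitor and Dex for 15 min, among them 6 H2B genes with each inhibitor. The core median was -0.19 with GSK591 and Dex, against -0.24 with GSK591 alone. With MS023 and Dex it was -0.26, against -0.27 with MS023 alone. More of all tested genes were called with Dex (5.85% and 7.66%) than with GSK591 or MS023 alone (0.306% and 0.183%). GSK591 with Dex lowered 9 of 52 genes, 6 of them H2B, and raised none, where 2.64% of all genes fell. H2BC18 went from 135 and 131 CPM in untreated to 79.9 and 92.1 CPM (-0.63 ± 0.10, adjusted p 5.1e-05; edgeR). H2BC21 went from 221 and 222 to 152 and 166 CPM (-0.48 ± 0.10, adjusted p 0.0019). Neither gene's treated libraries reached the untreated ones. The other falls were -0.63 ± 0.19 for H3C6, -0.51 ± 0.14 for H2BC26, -0.40 ± 0.11 for H3C12, -0.37 ± 0.10 for H2BC15, -0.36 ± 0.11 for H2AC21, -0.35 ± 0.11 for H2BC4 and -0.34 ± 0.11 for H2BC13 (adjusted p 0.017 to 0.048). No linker gene was called, and the H1 median was 0.10, turning to -0.04 with library size alone and -0.05 with reads outside the mitochondrial genome. Without untreated replicate 1, 2 genes were called.

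MS023 with Dex lowered 13 of 52 genes and raised none, where 2.67% of all genes fell: 6 H2B, 2 H2A, 2 H3, 2 H4 and 1 H1 gene. The 2 H4 genes were the near-identical copies H4C14 and H4C15, which are not separate results. The 6 largest falls were at H2AC16, from 11.9 and 13.4 to 7.95 and 6.85 CPM (-0.77 ± 0.18, adjusted p 0.0032), H2BC18, to 87.2 and 94.1 CPM (-0.55 ± 0.10, adjusted p 1.5e-04), H2BC26 (-0.53 ± 0.14), H2BC13 (-0.48 ± 0.11), H3C10 (-0.41 ± 0.10) and H2BC21 (-0.40 ± 0.10; adjusted p 0.0018 to 0.009 for the last 4). H1-3 was the linker gene that fell, to 136 and 137 CPM (-0.39 ± 0.10, adjusted p 0.006; edgeR). H1-2, H1-4 and H1-5 were at -0.03, -0.06 and -0.05 on the log2 scale and were not called. Without untreated replicate 2, 2 genes were called, and with library size alone 4. H2AC16 shares exon positions with H2BC15 on the same strand. Leaving out genes with such an overlap, a choice made after seeing the data, 7 genes were called here and 5 for GSK591 with Dex.

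Dex beside GSK591, compared with GSK591 alone at 15 min, raised 3 linker histone genes of the 52 (1.43% of all genes rose) and lowered H2BC18 (2.27% of all genes fell). H1-5 went from 59.3 and 64.3 to 78.2 and 92.0 CPM (0.46 ± 0.11, adjusted p 0.0069; edgeR). H1-4 went from 183 and 189.8 to 244 and 250.1 CPM (0.41 ± 0.10, adjusted p 0.013) and H1-2 from 181 and 206 to 244 and 263 CPM (0.39 ± 0.10, adjusted p 0.02). At each of them both Dex libraries lay above both GSK591 libraries. H2BC18 fell from 103 and 118 to 79.9 and 92.1 CPM (-0.36 ± 0.10, adjusted p 0.037). That call was lost with DESeq2 (adjusted p 0.0590), with only the groups compared (0.147), without GSK591 15 min replicate 2 (0.367), without GSK591 with Dex replicate 1 (0.216) and without either untreated library (0.0549 and 0.0550). H1-3 was 0.16 ± 0.10 and was not called (adjusted p 0.41). The H1 median was 0.40, above 0 under each scaling (0.19 with library size alone, which moved the median of all genes to -0.21), and the core median was 0.06, or -0.15 with library size alone. None of the 3 rises was called with library size alone (adjusted p 0.287 to 0.447) or without GSK591 15 min replicate 1 (0.139 to 0.303). The same held without GSK591 with Dex replicate 2 (0.0624 to 0.158), the library with the lowest scaling factor (0.810) and the highest mitochondrial share (58.0%); the part of that share in the result was not tested.

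Dex beside MS023, compared with MS023 alone, changed none of the 52 genes at the threshold (edgeR; 5 at an unadjusted p under 0.05, and DESeq2 also called none), although 8.97% of all genes were called. H1-5 was at 79.5 and 68.0 CPM without and 76.5 and 66.3 CPM with Dex. The difference between the Dex effects beside the 2 inhibitors was tested directly and called none of the 52 (edgeR; 7 at an unadjusted p under 0.05; DESeq2 also called none; 1.15% of all genes were called). For H1-5 that difference was 0.51 ± 0.15 with a 95% interval of 0.21 to 0.81 (adjusted p 0.086; edgeR). The linker histone rise beside GSK591 is thus not shown to differ from the effect beside MS023.

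From 15 min to 3 h, linker genes fell with GSK591, and H2B, H4 and H2A genes rose with MS023. The 4 tested linker genes also lay below 0 on the log2 scale with MS023 (median -0.28), where H1-5 was the 1 linker gene called. With GSK591, 5 of 52 genes fell and none rose (2.77% of all genes fell): H1-3 (-0.55 ± 0.10, adjusted p 2.4e-04), H1-5 (-0.46 ± 0.11), H1-4 (-0.37 ± 0.10), H1-2 (-0.37 ± 0.10) and H2BC15 (-0.39 ± 0.10, adjusted p 0.0093). H1-3 was at 135 and 156 CPM at 15 min and 98.7 and 99.1 CPM at 3 h, without overlap. The core median was -0.04, or 0.02 with library size alone. Without GSK591 15 min replicate 2, H1-3 was the 1 gene called.

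With MS023, 15 of 52 genes rose between 15 min and 3 h (7.65% of all genes rose) and H1-5 fell (4.4% fell). The risers were 9 H2B, 4 H4 and 2 H2A genes. No H3 gene was called, although 0 of the 9 tested H3 genes lay below 0 on the log2 scale. The 15 genes include H2BC8, which passed the read filter partly through MS023 3 h replicate 2, a library of this comparison. Its call is therefore no support for a rise. The 4 H4 genes include the near-identical copies H4C14 and H4C15, which are not separate results. H2BC18 went from 97.5 and 98.5 to 144 and 153 CPM (0.60 ± 0.10, adjusted p 2.9e-05; edgeR). H2BC14 rose by 0.62 ± 0.15, H2BC26 by 0.57 ± 0.14, H2BC6 by 0.57 ± 0.15 and H2AC21 by 0.48 ± 0.11 (adjusted p 0.0019 to 0.0093), and the 2 groups of libraries did not overlap at any of these. H2BC8 had the largest fitted rise (2.92 ± 0.97) on 0 and 0.300 CPM at 15 min and 0.327 and 1.94 CPM at 3 h. Without MS023 3 h replicate 2 its fitted change was 1.29 (adjusted p 0.681), and leaving out other libraries often ended the call too. H1-5 went the other way, from 79.5 and 68.0 to 51.8 and 57.1 CPM (-0.45 ± 0.11, adjusted p 0.0037). The family medians were 0.42 for H2B, 0.26 for H2A, 0.24 for H4, 0.20 for H3 and -0.28 for H1, with these signs under each scaling. Without MS023 15 min replicate 2, the shallowest library, 5 genes in all were called, and with library size alone 1 gene rose and 4 fell.

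**Figure D4:**
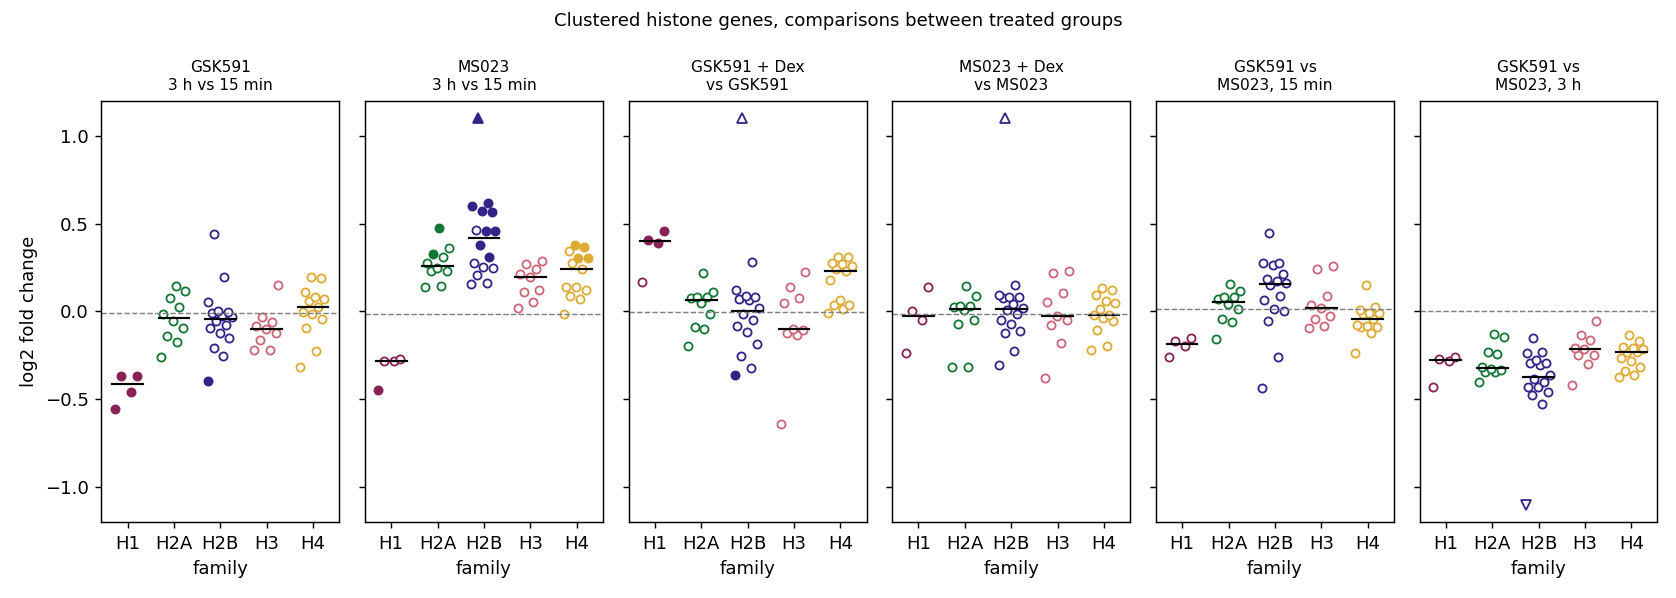
Log2 fold change of the 52 tested histone genes in 6 comparisons between treated groups, by family, drawn as in the plot against untreated cells. In the MS023 3 h panel the H2B median is 0.42 and the H1 median -0.28, beside GSK591 Dex moves H1 to a median of 0.40, and at 3 h every gene is lower with GSK591 than with MS023.

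The inhibitors were also compared with each other at matched times, in 2 comparisons. At 15 min none of the 52 genes differed at the threshold (edgeR; 5 at an unadjusted p under 0.05; DESeq2 also called none; 1.09% of all genes were called), and the median difference, GSK591 minus MS023, was 0.01, or -0.09 with library size alone. At 3 h no gene of the 21910 was called (0%; edgeR; 1319 at an unadjusted p under 0.05), and DESeq2 also called no histone gene, but the histone genes all lay on one side. The log2 difference was below 0 at 52 of 52, with a median of -0.28 against 0.00 over all genes, and 39 had an unadjusted p under 0.05. At 48 of 52 both GSK591 libraries were below both MS023 libraries, as at 17.6% of all genes. H1-3 differed by -0.43 ± 0.10 (95% interval -0.63 to -0.23, adjusted p 0.17; edgeR) and H2BC15 by -0.43 ± 0.10 (-0.63 to -0.23, adjusted p 0.17). Family medians ran from -0.37 for H2B to -0.22 for H3 and were below 0 under each scaling. The genes share these 4 libraries, so their common side is not 52 separate results.

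Whether the change from 15 min to 3 h differed between the inhibitors was tested as an interaction, chosen after seeing the data. H2BC15 and H2BC17 differed, 2 of 52 genes, both with a lower value for GSK591, as 0.47% of all genes were called in that direction. H2BC15 was at 77.2 and 91.9 CPM at 15 min and 63.4 and 65.3 CPM at 3 h of GSK591, and at 71.0 and 68.8 and then 85.8 and 87.6 CPM with MS023. Both GSK591 libraries were above both MS023 libraries at 15 min, and below them at 3 h. H2BC17 showed the same order, with 43.2 and 43.9 and then 39.0 and 36.3 CPM in GSK591 and 38.2 and 33.9 and then 50.3 and 49.2 CPM in MS023 libraries. The difference of differences was -0.70 ± 0.14 (adjusted p 0.0094; edgeR) for H2BC15 and -0.67 ± 0.16 (0.029) for H2BC17. H2BC15 shares exon positions with neighbouring H2A genes. For H1-5 it was -0.01 ± 0.15, with a 95% interval of -0.32 to 0.30. With library size alone, or without GSK591 15 min replicate 2, no histone gene was called.

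H2A and H2B genes that start back to back could be compared within a pair. There were 11 such H2A and H2B pairs with starts 219 to 331 bp apart, and both genes were tested in 7. GSK591 for 3 h gave a log2 change that was lower at the H2B than at the H2A gene in 6 of 7 pairs, and each inhibitor alone for 15 min and MS023 with Dex likewise in 6 of 7. GSK591 with Dex gave 5 of 7. MS023 for 3 h gave 3 of 7, and between 15 min and 3 h the H2B gene had the lower change in 2 of 7 pairs with either inhibitor, so the order was not the same in all comparisons. These comparisons share libraries. In the pair H2BC4 and H2AC6, 219 bp apart, MS023 for 15 min gave -0.50 at H2BC4 and -0.23 at H2AC6. In the pair H2BC21 and H2AC20 it gave -0.36 and -0.40, the reverse order. The difference within a pair was not tested.

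Genes of the wider histone programme moved as follows, and the lists were chosen with earlier results of these data known. Among 19 tested factors of histone gene transcription and RNA processing, 2 rose with 3 h of GSK591 (7.25% of all genes rose) and 3 with 3 h of MS023 (5.4% of all genes rose), and none fell. The 2 of 19 with GSK591 is close to the share over all genes. SLBP, the stem-loop binding protein, had 11.2 and 12.3 CPM in untreated, 27.7 and 34.3 CPM in GSK591 3 h and 28.1 and 30.6 CPM in MS023 3 h libraries. It rose by 1.40 ± 0.17 and 1.32 ± 0.18 (adjusted p 1.7e-07 and 8.7e-07; edgeR), and also with GSK591 and Dex (0.92 ± 0.19) and MS023 and Dex (1.06 ± 0.18). UPF1, a helicase used in histone mRNA decay, rose by 0.41 ± 0.10 and 0.46 ± 0.10 at 3 h, and LSM11, a U7 component, by 0.59 ± 0.18 with MS023. UPF1 had its highest group mean with MS023 and Dex at 15 min (65.8 and 65.1 CPM, against 43.0 and 47.5 CPM in untreated libraries). With GSK591 alone at 15 min it was at 59.6 and 55.4 CPM, and with MS023 alone at 44.9 and 48.5 CPM. SRRT (ARS2) fell with GSK591 and Dex (-0.46 ± 0.10, adjusted p 0.0019). NPAT, the histone locus body organiser, had 2.25 to 5.60 CPM and is named for its role; it was called in no comparison.

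Among 11 histone variants encoded outside the clusters, 3 fell and 1 rose with GSK591 at 3 h, where 3.79% of all genes fell and 7.25% rose. With MS023 at 3 h 1 fell and 1 rose, where 2.23% of all genes fell and 5.4% rose. H3-5 fell, with log2 changes of -1.02 ± 0.28 and -0.94 ± 0.29 on 2.21 to 6.08 CPM. H2AX, the H2A form phosphorylated at DNA breaks, rose by 0.34 ± 0.10 and 0.32 ± 0.10, from 120.5 and 116 CPM to 154 and 147 and 152 and 144 CPM. H2AJ and H3-3B fell with GSK591 at 3 h (-0.32 ± 0.10 and -0.33 ± 0.11).

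**Figure D5:**
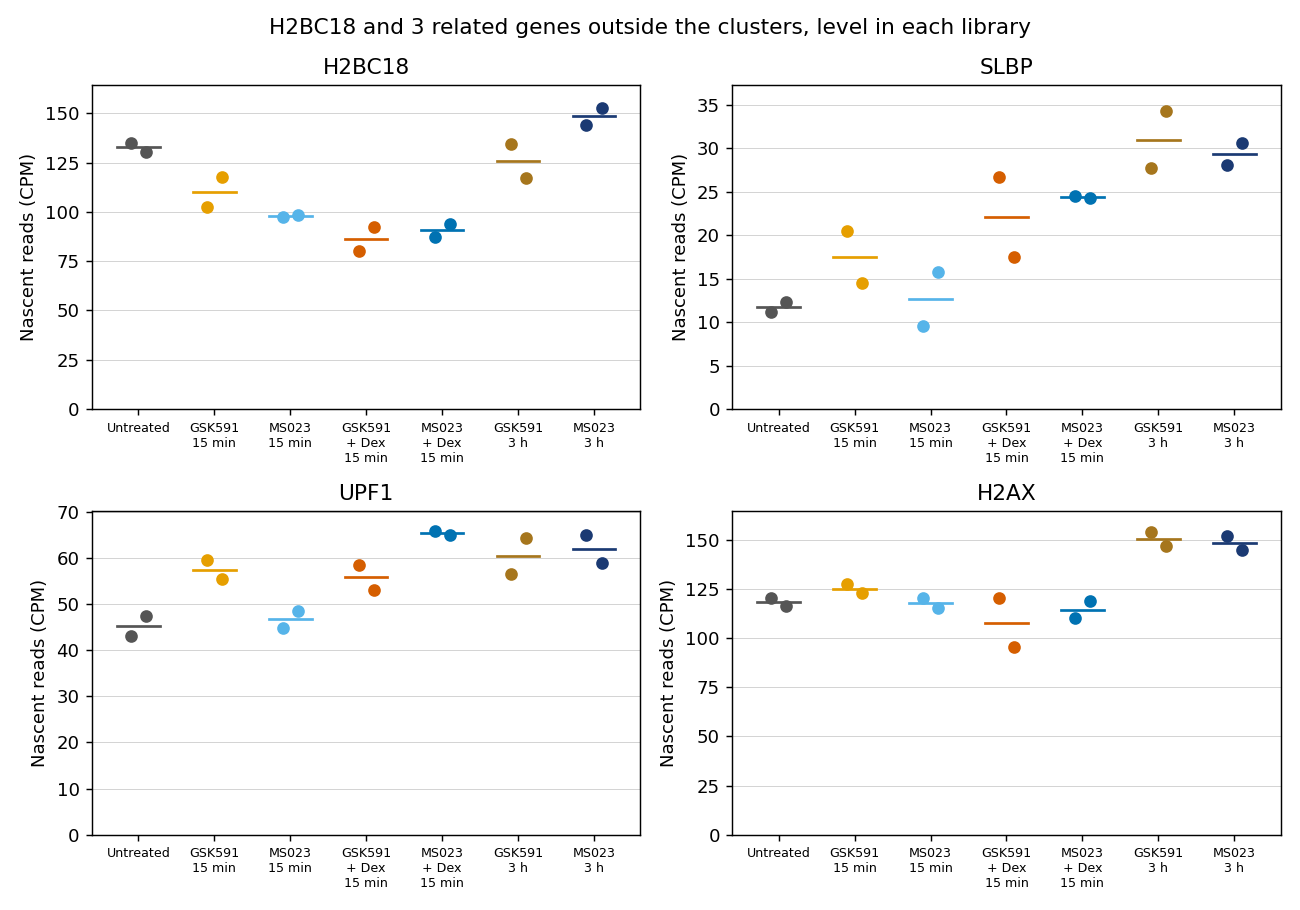
Level in each library of H2BC18, from the chromosome 1 cluster, and of 3 genes outside the clusters, SLBP, UPF1 and H2AX. Axes, points and bars are as in the plot of linker histone levels. H2BC18 is lowest in the groups given an inhibitor with Dex (79.9 and 92.1 and 87.2 and 94.1 CPM), and SLBP and H2AX are highest in the 3 h groups.

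Of 30 S phase genes, 2 fell and 1 rose with GSK591 at 3 h, where 3.79% of all genes fell and 7.25% rose: MCM5 (-0.42 ± 0.10) and GINS2 (-0.56 ± 0.14), both of the replicative helicase, fell, and the cyclin gene CCNE1 rose (0.76 ± 0.18). With MS023 3 fell (2.23% of all genes fell), GINS2 (-0.52 ± 0.14), GINS4 (-0.49 ± 0.13) and MCM5 (-0.38 ± 0.10). The list's median was -0.09 and -0.14 in these contrasts, against -0.01 in each over all genes, and its part in the histone results was not tested. Among 14 histone chaperone genes, NAP1L1 fell with both inhibitors at 3 h (-0.35 ± 0.09 and -0.34 ± 0.10), while HIRA (0.76 ± 0.25) and NAP1L4 (0.47 ± 0.13) rose with GSK591.

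Of the histone pseudogenes, 12 had enough reads. H2BC19P and H2BC20P fell with GSK591 at 3 h (-0.75 ± 0.10 and -0.67 ± 0.10) and with MS023 at 15 min (-0.59 ± 0.10 and -0.68 ± 0.10), and H4C10P fell with MS023 at 15 min (-0.81 ± 0.17). Of all genes, 3.79% and 0.1% fell in these contrasts. H2BC19P averaged 99.6 CPM in untreated libraries. It was also lower with GSK591 at 15 min (71.9), GSK591 and Dex (70.2) and MS023 and Dex (78.7). H4C10P averaged 16.6 CPM in untreated libraries, 8.45 with GSK591 and Dex and 19.1 with MS023 at 3 h. H2BC19P and H2BC20P overlap in position on chromosome 1, so their falls are not separate results. Such pseudogenes resemble the active genes, so their reads are uncertain where multiple mapping is not described. Of 8 tested genes that neighbour the histone genes in the clusters, 2 fell with GSK591 at 3 h (3.79% of all genes fell) and 1 with MS023 at 15 min (0.1% of all genes fell). By cluster, falls with GSK591 at 3 h came from 4 of the 6: 7 of 21 tested genes of the largest chromosome 6 cluster, 6 of 14 and 4 of 5 in the other chromosome 6 clusters, and 3 of 9 in the larger chromosome 1 cluster. The clusters without a call held only 2 and 1 tested genes, too few to say that they were spared.

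The authors' deposited tables, which use DESeq2, called 7 of the 52 histone genes with GSK591 at 3 h, among 535 genes called in all. For MS023 at 3 h the authors' deposited table called 2 among 359, for GSK591 with Dex 2 among 154 and for MS023 with Dex 2 among 238. With either inhibitor alone at 15 min, the authors' deposited tables called 0 histone genes, among 0 genes in all for GSK591 and 3 for MS023. The number of genes tested in the deposited tables is not given here, so these counts cannot be judged against a share of all genes. For GSK591 at 3 h the edgeR fit made here called 2419 genes in all, so the counts from the 2 sources are not directly comparable. In the authors' deposited table for GSK591 at 3 h the 7 were H1-2, H1-3, H1-4, H1-5, H2AC11, H2AC20 and H2BC21, and H1-3 had a log2 fold change of -0.89. In the authors' deposited table for MS023 at 3 h they were H1-3 and H1-4. Over the comparisons fitted here, which share libraries, 34 of the 52 tested genes were called at least once in 13 contrasts. The other 18 were called in none, among them H3C14, H3C15, H4C2, H4C5 and H4C16. Single contrasts called 0% to 12% of all tested genes. The share of all genes called at least once was not counted, so 34 of 52 cannot be judged as high or low.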

How the data were processed

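Nascent RNA of 14 A549 libraries in 7 groups of 2 was analysed from the deposited table of read counts per gene. The authors counted reads with featureCounts 2.0.1 on hg38, per the submitters' processing notes. The run-on and counting settings for strand and multiple mapping are not given in the sources used here. The authors' deposited tables hold the log2 fold change of each gene and its error, p-values before and after adjustment, a Wald score and a mean normalised count (signal), made with DESeq2 (version not given in the sources used here), per the submitters' processing notes.

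From the counts, edgeR 4.0.16 (R 4.3.3) was run on all 14 libraries in 1 model with a term per group, TMM scaling and its default read filter, which kept 21910 of 58780 genes. Rows with a blank gene name (22731) kept their gene ID. The quasi-likelihood test had 7 residual degrees of freedom per gene. To these it added 32.7 prior degrees of freedom from the spread shared over genes, so p-values and intervals rest largely on that shared estimate. P-values were adjusted by Benjamini-Hochberg over all tested genes, with a threshold of 0.05, and intervals are 95%. The model was tested on simulated data. Depth was 5768312 to 9606938 counts per library, and the 2 libraries of every group differed by more than counting noise (chi-square per degree of freedom 2.15 to 15.4).

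The histone genes and the other lists were chosen with earlier results of these data known. Genes named with values are the 4 highest per kb of each family, the called genes of each comparison (the 6 largest rises and falls where more than 12 were called), and up to 4 called genes of each other list. Genes named beyond these illustrate a pair, a family or a test of a difference. Alternatives were DESeq2 1.42.0, 3 other scalings, no read filter, only the groups compared, a replicate block and leaving out each library. Coordinates are from GENCODE 29 and promoter sequences from RefSeq (GRCh38.p14). Groups follow the sample labels. A gene of the variant list is not reported here.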

Additional observations from a re-analysis of the deposited data

Results flagged for a closer look

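The change from 15 min to 3 h differed between GSK591 and MS023 at H2BC15, by -0.70 on the log2 scale, and at H2BC17, by -0.67, in a test of that difference (edgeR, adjusted p 0.0094 and 0.029). The comparison was chosen after seeing the data. H2BC15 shares exon positions with neighbouring H2A genes. With library size alone as scaling, 0 histone genes passed this test, and with 1 library left out 0 to 3 did.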

How the results depend on the processing

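Counts of called histone genes depended on scaling. With library size alone, which moved the median of all genes to between -0.21 and 0.19, 4 were called for GSK591 3 h, 1 for MS023 3 h, 0 for MS023 15 min, 4 for MS023 with Dex, 1 for GSK591 3 h against 15 min, 5 for MS023 3 h against 15 min, 2 for Dex beside MS023 and 0 for the time-effect difference; Dex beside GSK591 then gave 3 falls in place of 3 rises and 1 fall. With reads outside the mitochondrial genome as library size, the counts were 34 for GSK591 3 h, 2 for GSK591 15 min, 22 for MS023 15 min, 20 when MS023 was given with Dex, 22 when GSK591 was, 29 for MS023 3 h against 15 min and 5 for the time-effect difference. That library size moved the median of all genes to -0.12 for GSK591 3 h, -0.16 for MS023 15 min and 0.10 for MS023 3 h against 15 min. The share of all genes called in each alternative setting is not set beside these counts. DESeq2 called 1 for GSK591 15 min, 6 for MS023 15 min and 3 for GSK591 with Dex. Without a read filter, 1 was called for GSK591 15 min, 5 for MS023 3 h and 1 for GSK591 against MS023 at 3 h. With only the groups compared, 5 were called for GSK591 15 min, 8 for MS023 15 min and 1 for Dex beside GSK591. Without genes that overlap another gene, a choice made after seeing the data, the counts were 1 for MS023 15 min, 7 when MS023 was given with Dex, 5 when GSK591 was, 10 for MS023 3 h against 15 min and 1 for the time-effect difference.

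Leaving out 1 library at a time gave 0 to 1 for GSK591 15 min, 0 to 4 for MS023 15 min, 9 to 23 for GSK591 3 h, 1 to 5 for MS023 3 h, 1 to 5 for GSK591 3 h against 15 min, 5 to 22 for MS023 3 h against 15 min, 2 to 14 when MS023 was given with Dex, 2 to 9 when GSK591 was, 1 to 5 for Dex beside GSK591, 0 to 1 for the Dex-effect difference, 0 to 3 for GSK591 against MS023 at 3 h and 0 to 3 for the time-effect difference. The lowest counts came without GSK591 3 h replicate 2 (9), untreated replicate 2 (1 for MS023 3 h and 2 for MS023 with Dex), untreated replicate 1 (2 for GSK591 with Dex) and MS023 15 min replicate 2 (5). None of the 42 named changes reversed under the alternatives run; 20 lost their call with library size alone. Replicate numbers did not pair the libraries (correlation of deviations -0.077 to 0.128 over 21 pairs of groups, median 0.015), and with a replicate block 22 genes were called for GSK591 3 h, 4 for MS023 3 h and 14 for MS023 with Dex. The 2 libraries per group limit the smallest change that can be called, and genes of few reads such as H2BC8 could not be judged.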
